A study of Mus musculus with 54 samples.

Results

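CM-only CTCF peaks are regions of the mouse genome (build mm9) that were listed as bound by CTCF in testes of the compound mutant and that shared not a single base with any CTCF peak listed in wild-type testes. They were 1922 of the 21525 CTCF peaks of the compound mutant; the other 19603 overlapped a wild-type peak and are called shared peaks. The members were therefore chosen by presence in one list and absence from the other, and their heights and their distances to wild-type peaks are given below only as descriptions. In the opposite direction, 15198 wild-type peaks had no compound mutant peak (WT-only peaks) and 19427 had one.

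The study compared adult males, 3 months old, on a C57BL/6 background in which one copy of Ctcf, both copies of Boris (the gene listed as Ctcfl), or all of these were deleted in every cell. Wild-type (WT) males were Ctcf+/+ Boris+/+, CTCF HET males Ctcf+/- Boris+/+, BORIS KO males Ctcf+/+ Boris-/-, and compound mutants (CM) Ctcf+/- Boris-/-, so that CM males differed from WT at both genes and still carried 1 intact copy of Ctcf. CTCF chromatin immunoprecipitation followed by sequencing (ChIP-seq) was done on 2 preparations per genotype, each from pooled mice and enriched for germ cells, and 1 peak list per genotype was deposited, so no replicate error exists for any peak. BORIS, RNA polymerase II (Pol2) and H3K4me3 peak lists and RNA-seq of whole testis, round spermatids and spermatocytes were available from the same series.

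CTCF is a DNA-binding protein with a tandem array of zinc fingers that reads a long, G-rich motif and, with cohesin, anchors chromatin loops and domain borders. BORIS is its paralogue, made almost solely in male germ cells, with a closely similar zinc finger array and very different ends. A CpG within the motif can be methylated, which weakens the binding of CTCF at some sites.

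The sequences under the CM-only peaks are shown first for those of the 10 highest members that had a motif match, so that the bases counted further on can be seen in place. The peak near Pde4b, also among the 10, had none. Each is given 5′ to 3′ on the strand of the match, from mm9, with the best match of 16 bases in capitals and 20 bases of flank on either side, and is named by its nearest gene. The stretch near Sqrdl, from the highest member, is chr2:122579691-122579746 on the minus strand. That near Agtr1b is chr3:20489182-20489237 on the plus strand, that near Gnai1 chr5:17951959-17952014 on the minus strand, and that in an intron of Ghrhr chr6:55329846-55329901 on the plus strand. The stretch near 4930529I22Rik is chr2:169257189-169257244 on the plus strand, that near Gm15840 chr16:56920537-56920592 and that near Ighv1-67 chr12:116843355-116843410, both on the minus strand. The stretch in an intron of Bcr, whose nearest annotated start is that of Specc1l 60.6 kb away, is chr10:74614263-74614318, and that near Melk chr4:44305646-44305701, both on the minus strand.
Sqrdl: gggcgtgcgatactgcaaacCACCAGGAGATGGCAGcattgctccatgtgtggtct
Agtr1b: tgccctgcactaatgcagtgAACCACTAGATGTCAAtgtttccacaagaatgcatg
4930529I22Rik: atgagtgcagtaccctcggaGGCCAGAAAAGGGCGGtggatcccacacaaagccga
Gm15840: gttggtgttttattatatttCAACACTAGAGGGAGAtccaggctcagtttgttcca
Gnai1: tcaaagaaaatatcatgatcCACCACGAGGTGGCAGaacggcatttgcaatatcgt
Ighv1-67: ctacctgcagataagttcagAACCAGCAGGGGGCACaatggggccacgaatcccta
Ghrhr: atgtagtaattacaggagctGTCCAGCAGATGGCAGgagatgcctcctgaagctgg
Bcr: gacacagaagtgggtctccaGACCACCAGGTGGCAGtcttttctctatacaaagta
Melk: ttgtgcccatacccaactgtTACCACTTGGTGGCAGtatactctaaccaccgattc

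Next to these stand the matches of the members at chr8:97951672-97951727 in an intron of Gtl3 and at chr2:121222535-121222590 in an intron at the promoter of Catsper2, which are shown because both lay under a WT BORIS peak and both hold, near the 3′ end of the match, the CpG that most members lacked. The first is on the plus strand and the second on the minus strand. Both were picked for the CpG from the 5 highest members under a WT BORIS peak. Of that list, the matches near Tmc5 and Cacng3 hold no CpG, and the member nearest to U6 had no match. The share with the CpG among all members under a WT BORIS peak was not counted.
Gtl3: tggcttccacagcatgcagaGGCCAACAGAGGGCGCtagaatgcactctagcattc
Catsper2: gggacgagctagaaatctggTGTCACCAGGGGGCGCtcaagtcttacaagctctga

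CM-only peaks were low. The height of a peak is the pile-up of reads at its summit as the deposited lists give it, and both CTCF lists began at 100. The median height was 147 among CM-only peaks (quartiles 122 and 188, range 100 to 774) and 340 among shared peaks (quartiles 212 and 496). When all CM peaks were divided into 4 height classes of nearly equal size, the CM-only share was 27.2% in the lowest class (1468 of 5404 peaks of height 100 to 188), 7.80% in the next (424 of 5437), 0.528% in the third (28 of 5305) and 0.0372% in the highest (2 of 5379). Since lower peaks differ from higher ones in many ways, most features below are also given within the lower height classes. Heights in the WT list reached far higher (median 1121 for the WT peaks with a CM peak), and how heights were scaled between the lists is not given in the sources used here, so absence from the WT list is not a measured absence of binding.

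**Figure D1:**
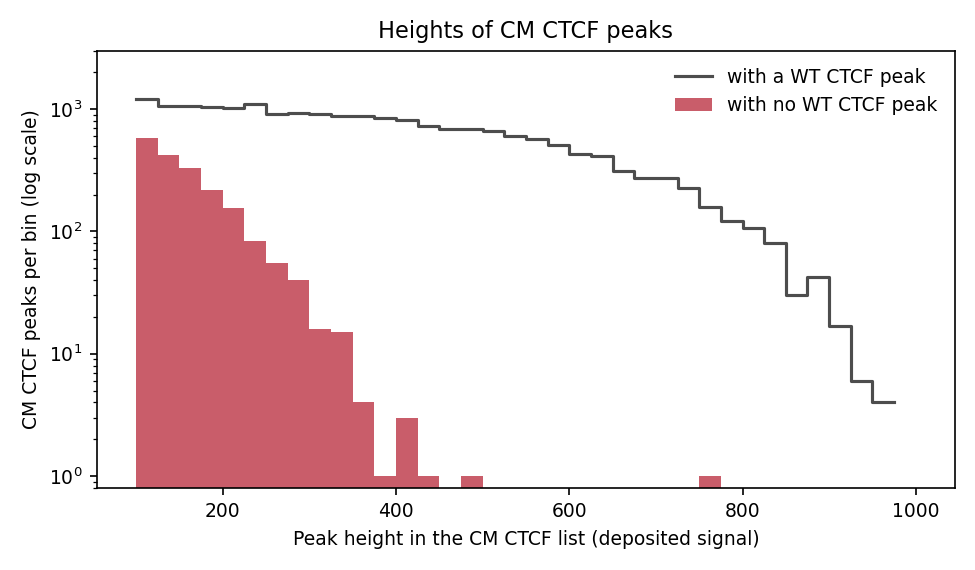
Number of CM CTCF peaks (log axis) by peak height in the CM list (deposited signal), for peaks with no WT CTCF peak (red, 1922) and with one (grey line, 19603). Peaks with no WT peak are most frequent just above the list's lower limit of 100, with a median of 147 against 340, and 2 of them exceed a height of 478.

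The nearest WT CTCF peak lay at a median distance of 24920 bp from a CM-only peak (quartiles 8331 and 62437 bp). It was within 250 bp for 17 members, within 1 kb for 78 (4.06%) and more than 100 kb away for 301 (15.7%). Just inside the rule stood a peak of height 110 in an intron of Lrrc9, 21 bp from a WT peak of height 127, and a peak of height 147 near Adar, 33 bp from a WT peak of height 127. Just outside it stood a CM peak at chr16:29451850-29452037 of height 102, which overlapped a WT peak of height 110 by 73 bp.

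The 10 highest members ranged in height from 364 to 774. The peak upstream of Sqrdl, which encodes a mitochondrial sulfide-oxidizing enzyme, reached a height of 774 at chr2:122579476-122580061, 11.2 kb from the gene's start and 24.7 kb from a WT peak of height 102. The next, at chr3:20489057-20489340 near Agtr1b, an angiotensin II receptor gene, reached 480. Among the others were the peaks near Gnai1 (a G protein subunit gene, height 406), in introns of Ghrhr (the receptor for growth hormone-releasing hormone, 378) and Bcr (a signalling protein gene, 372), and near Melk (a kinase gene, 364). Of these 10, only the peak 0.945 kb upstream of Ighv1-67, an immunoglobulin heavy chain variable segment, lay under any Pol2 or H3K4me3 peak. That member, at chr12:116843217-116843625 with a height of 404, was under a CM Pol2 and a CM H3K4me3 peak and under neither in WT.

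The position of CM-only peaks relative to genes differed from that of shared peaks mainly at promoters, the 1 kb around an annotated start. A summit lay at a promoter for 116 members (6.04%, 95% Wilson interval 5.06 to 7.19) and for 11.5% of shared peaks, a difference of -5.43 percentage points (95% Newcombe interval -6.51 to -4.20). In the lowest height class the shares were 6.40% and 12.1%, and in the next 4.72% and 10.3%. Gene bodies outside promoters held 45.2% of members and 39.9% of shared peaks, a difference of 5.27 points (2.95 to 7.60), which was 3.70 (0.733 to 6.69) in the lowest height class and 0.335 (-4.49 to 5.28) in the next. Intergenic shares were 48.8% and 48.6%, with an interval of the difference from -2.17 to 2.50 points, but in the second height class they differed by 5.24 points (0.290 to 10.2). At the summit itself the annotation gave an intron for 880 members, no gene feature for 974, an untranslated region for 39, another exon for 21 and coding sequence for 8. These intervals cover counting error only, and neighbouring peaks of one list are not independent, so no p-value is given. WT-only peaks, with 30.9% at promoters, lay at starts far more often than CM-only peaks.

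**Figure D2:**
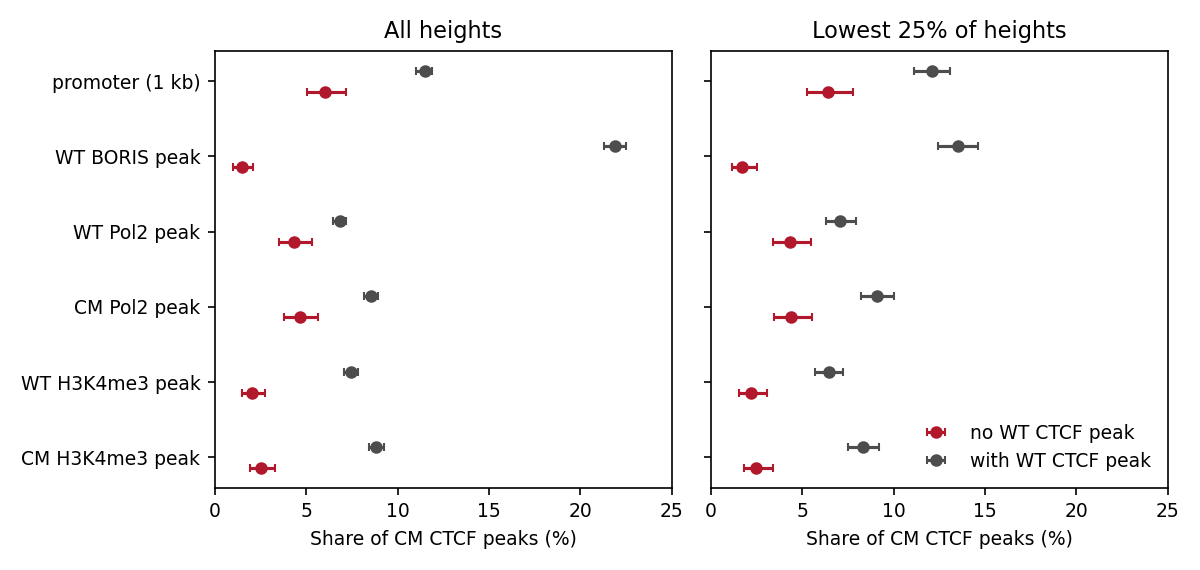
Percent of CM-only (red) and shared (grey) CTCF peaks at promoters and under BORIS, Pol2 and H3K4me3 peaks, for all heights (left) and for the lowest height class (right); points are shares and bars 95% Wilson intervals. Members lie below shared peaks in each feature shown, with the widest gap for WT BORIS (1.46% and 21.9% over all heights). That gap is partly set by the rule, since BORIS peaks that coincide with WT CTCF peaks cannot lie under a member.

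Most CM-only peaks carried the CTCF motif. A match was sought on both strands within 100 bp of the summit on either side with a matrix learned from the 2000 highest shared peaks, whose consensus was GGCCACNAGGGGGCGC, and the score a match had to reach was the one that 5% of windows 2 kb away from CM peaks reached. Matches were found in 1689 members (87.9%, 86.3 to 89.3) and in 92.8% of shared peaks, while windows beside the members reached the score in 3.77% of cases. In the lowest height class the shares were 88.1% and 90.0%, a difference of -1.91 points (-3.89 to -0.0710). WT-only peaks held a match in 48.8%, which was 39.0 points (37.3 to 40.6) below the members.

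The matches sat at the summits. Among members with a match, 91.2% had its centre within 25 bp of the summit, against 90.7% of shared peaks (interval of the difference -1.02 to 1.82 points) and 61.7% of WT-only peaks. Summits of WT-only peaks come from the WT list, in which peaks with a CM peak stood at 78.9%. The 61.7% is therefore not directly comparable with the shares from the CM list. Within the lowest height class, however, the shares were 90.6% and 85.1%, a difference of 5.52 points (3.47 to 7.42). Matches lay on the plus strand in 48.7% of members. The 233 members without a match were at promoters in 11.6% of cases.

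The matches of members were weaker. The median best score was 14.5 bits in members and 18.2 bits in shared peaks (14.5 and 17.3 in the lowest height class). At the stricter score that 1% of neighbouring windows reached, 33.9% of members and 60.9% of shared peaks held a match, a difference of -27.0 points (-29.2 to -24.7), and in the lowest height class the shares were 34.0% and 53.3%. The matrix came from shared peaks and so favours them. A matrix learned from the members themselves, an alternative chosen after seeing the data, had the consensus CCACNAGAGGGCAN and matched 85.7% of members and 89.6% of shared peaks. At its own score for 1% of neighbouring windows, it matched 40.1% of members and 49.8% of shared peaks. The size of the gap at the stricter score thus depended on the matrix.

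The letters of the matches differed at several positions, counted from 1 at the 5′ end of the 16-base match. At the core positions both classes were nearly invariant: cytosine at position 4 was present in 99.7% of members and 99.8% of shared peaks, and guanine at position 9 in 99.6% and 99.9%. At position 11, thymine was present in 46.4% of members and in 27.1% of shared peaks (difference 19.2 points, 16.8 to 21.7). Of the matches printed above, Sqrdl, Agtr1b, Gnai1, Ghrhr, Bcr and Melk have thymine there, and 4930529I22Rik, Gm15840 and Ighv1-67 have guanine. In the lowest height class these shares were 44.2% and 22.6%, and WT-only peaks had thymine there in 18.4%. Members also had guanine less often at positions 1 (36.5% against 52.1%) and 2 (39.1% against 54.4%), cytosine more often at position 6 (61.1% against 46.9%) and thymine more often at position 7 (43.5% against 29.3%).

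The CpG at positions 14 and 15 was far less common in members. It was present in 15.7% of members (95% interval 14 to 17.5) and 44.1% of shared peaks, a difference of -28.4 points (-30.2 to -26.4). Within the lowest height class the shares were 15% and 38.4% (difference -23.4 points, -25.8 to -20.8), and WT-only peaks stood at 40.2%. Among the highest members printed above, the 4930529I22Rik match holds it. In its place, members more often had cytosine followed by adenine (54.4% against 40.1%). A CpG anywhere in the match was present in 23.1% of members and 49.3% of shared peaks. DNA methylation was not measured.

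Fewer CpGs and less G and C were also found around the matches. The windows around the summits had a median of 42.8% G and C in members and 48.3% in shared peaks, and held on average 1.83 ± 1.58 and 3.96 ± 4.30 CpGs (SD over peaks). In the lowest height class the medians of G and C were 43.0% and 48.3%, and the means 1.80 ± 1.56 and 3.61 ± 4.28 CpGs. Windows 2 kb away had medians of 43.3% and 46.8%. The part of base composition in the CpG difference was not tested.

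Matches of members were rarely of the kind that occurs in large numbers in the genome. The exact 16 bases occurred 100 or more times in mm9 for 45 members (2.66%) and for 12.9% of shared peaks, a difference of -10.3 points (-11.1 to -9.25), and once for 18.0% and 13.6%. Such abundant sites are typical of transposed repeats, but repeat annotation was not used here. The site GGCCAGAAGAGGGCAT, with 3000 copies, was the match of 8 members and of 426 shared peaks. The site GGCCAGAAGAGGGCGT, with 699 copies and a CpG at positions 14 and 15, was the match of 279 shared peaks and of 0 members. Among sites with fewer than 10 copies this CpG was still present in 18.7% of members and 50.7% of shared peaks, a difference of -31.9 points (-34.2 to -29.6).

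**Figure D3:**
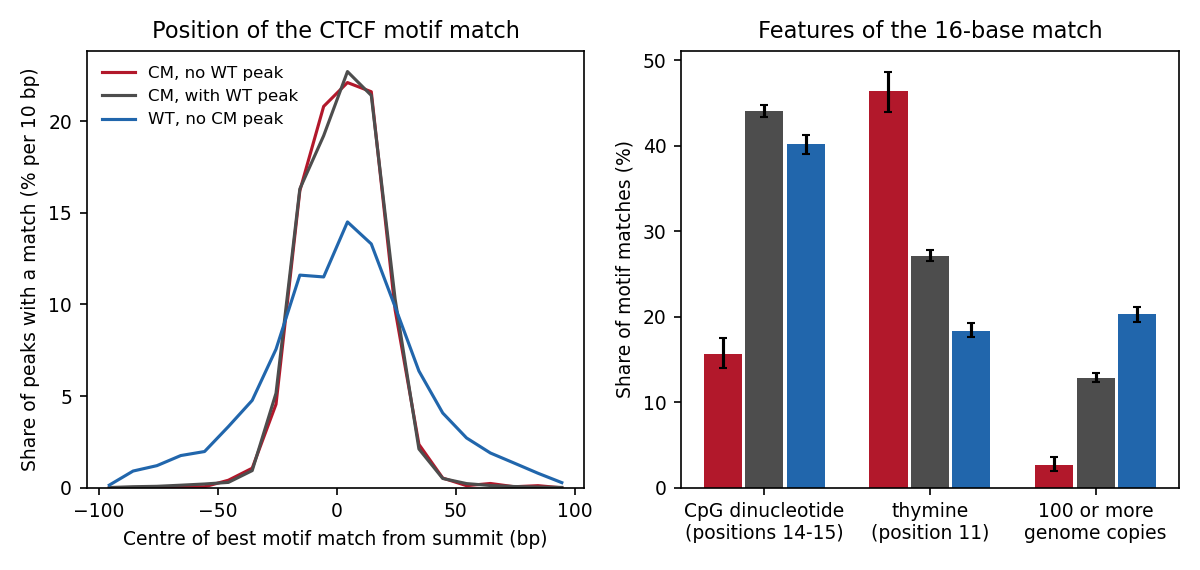
Left, distance in bp of the centre of the best motif match from the peak summit, as percent of peaks with a match per 10 bp, for CM-only (red), shared (grey) and WT-only (blue) CTCF peaks; right, percent of matches with a CpG at positions 14 and 15, thymine at position 11, or 100 or more genome copies, with 95% Wilson intervals. The red and grey curves run close together, while the CpG was present in 15.7% of members and 44.1% of shared peaks. Distances for the blue curve are from summits of the WT list and those for the others from the CM list.

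Few CM-only peaks lay under a listed WT BORIS peak, and the CM-only rule itself lowers that share. A WT BORIS peak overlapped 28 members (1.46%, 1.01 to 2.10) and 21.9% of shared peaks, a difference of -20.4 points (-21.2 to -19.6). Within the lowest height class the shares were 1.70% and 13.5% (difference -11.8 points, -13.0 to -10.5), and WT-only peaks stood at 11.8%. Seen from the other list, 28 of 7652 WT BORIS peaks lay under a member. Of the 28 members, 24 held a motif match and 9 were at promoters. Because the CM-only rule removes every place with a WT CTCF peak, BORIS peaks that coincide with WT CTCF peaks could not lie under a member. Such BORIS peaks are among the 7652. Shared and WT-only peaks have a WT CTCF peak by definition. The differences from them were thus partly set by the rule and are given only as descriptions.

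The highest of these 28 stood 1.91 kb upstream of Tmc5, a transmembrane channel-like gene, with a CTCF height of 248 in CM and a BORIS height of 89 in WT. The next, in Gtl3, had heights of 242 and 77 and lay under Pol2 peaks of both genotypes. The third was at the promoter of Catsper2, which encodes a pore-forming subunit of the sperm cation channel, with heights of 194 and 97 and a CM Pol2 peak. Expression of Catsper2 in whole testis was 264, 288 and 321 CPM in the WT libraries and 121, 217 and 145 CPM in the CM libraries. CPM are reads scaled to the library's total over the tested genes, adjusted by TMM scaling. The CM libraries were all below the WT libraries, with a log2 fold change of -0.85 ± 0.27 (SE; edgeR adjusted p = 0.0478), less than the 2-fold change required for a call.

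Pol2 and H3K4me3, a histone mark of active promoters, were uncommon at members. A CM Pol2 peak covered 89 members (4.63%) and 8.55% of shared peaks, a difference of -3.92 points (-4.86 to -2.82), and a CM H3K4me3 peak covered 48 (2.50%) and 8.83%, a difference of -6.33 points (-7.06 to -5.44). In WT the shares of members were 4.32% for Pol2 and 2.03% for H3K4me3. In the lowest height class CM Pol2 covered 4.36% of members and 9.07% of shared peaks, whereas in the next class the interval of the difference, -3.43 to 1.25 points, included 0. WT-only peaks lay under these marks far more often, 20.8% under CM Pol2 and 23.6% under CM H3K4me3.

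The marks were compared between genotypes member by member. Pol2 was listed at 56 members in both, at 33 in CM alone and at 27 in WT alone, and H3K4me3 at 29, 19 and 10. At shared peaks marks in CM alone also outnumbered those in WT alone, by 569 to 229 for Pol2 and by 568 to 297 for H3K4me3. Any of the 4 lists covered 141 members (7.34%), and 44 of the 116 promoter members (37.9%). Besides the Ighv1-67 peak, the highest members under both CM marks were near Tcea2, a transcription elongation factor gene (height 290, listed in CM alone), at the promoter of Zfp54, a zinc finger gene (279, in all 4 lists), in an intron of Zc3h10 (270, in all 4) and at the promoter of Nuf2, a kinetochore gene (269, in all but WT H3K4me3).

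Members were spread over all chromosomes. They made up between 5.81% of CM peaks (chromosome 11, 95 of 1634) and 13.4% (chromosome 3, 130 of 971) on the autosomes, and 15.4% on the X (69 of 447, 12.4 to 19.1). The X stood 6.65 points above the autosomes together (8.79%; interval of the difference 3.57 to 10.3). In the lowest height class the difference was 8.92 points (1.84 to 16.6), and in the next -0.782 (-4.04 to 4.70). By length, however, the X had the fewest members of these chromosomes, 0.414 per Mb against 0.554 (chromosome 8) to 0.886 (chromosome 2), and few CM peaks of any kind, 2.68 per Mb against 13.4 on chromosome 11.

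**Figure D4:**
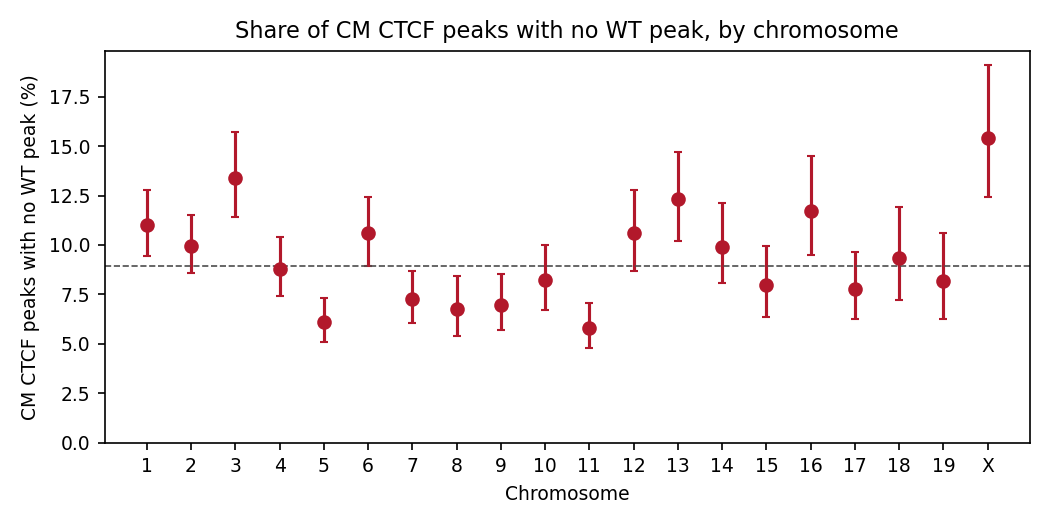
CM-only peaks as percent of all CM CTCF peaks on each autosome and the X, with 95% Wilson intervals; the dashed line is the share over all chromosomes. The X chromosome was highest at 15.4% and chromosome 11 lowest at 5.81%, and the Y chromosome, with 5 CM peaks, is not drawn.

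On the Y chromosome 1 of 5 CM peaks was a member. Members seldom lay together: of 1214 bins of 1 Mb with a member, 750 held 1. The densest bin, chr2:52000001-53000000, held 7 members among 12 CM peaks, including peaks in introns of Neb, which encodes the giant muscle protein nebulin, of Cacnb4, a calcium channel subunit gene, and of Fmnl2, a formin gene.

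The RNA-seq data allow the genes at members to be described. Whole testis libraries held 10437683 to 42055813 counted reads, 3 per genotype, and those of purified cells 50861159 to 98545423, 3 per genotype except 2 for WT spermatocytes. Ctcf itself, the gene lacking 1 copy, had 46.4, 42.5 and 44.0 CPM in WT and 27.0, 28.1 and 24.8 CPM in CM whole testis, a log2 fold change of -0.74 ± 0.21 (edgeR adjusted p = 0.0329). Ctcfl had 0.524 to 0.745 CPM in WT and 0.128 to 0.197 in CM and was too low to be tested. In purified cells Ctcf did not follow the genotype: in round spermatids it had 45.9, 30.3 and 28.5 CPM in WT and 169, 48.7 and 39.1 CPM in the libraries labelled CM (log2 fold change 1.29 ± 0.54, edgeR adjusted p = 0.235), and in spermatocytes 33.2 and 31.5 CPM in WT and 83.0, 33.1 and 32.6 CPM in the libraries labelled CM (0.62 ± 0.43, 0.376). The first library labelled CM was the highest in both cell types. Ctcfl in round spermatids had 2.68, 4.96 and 3.27 CPM in WT and 2.50, 1.85 and 1.10 CPM in the libraries labelled CM (-1.0 ± 0.48, 0.285). Which parts of the genes the deletions removed was not used here, so reads from a remaining part cannot be told apart from intact transcripts. In whole testis, fewer cells of a type and less RNA per cell cannot be told apart, and summed markers of several cell types moved between the genotypes: Leydig cell markers from 398 to 628 CPM in WT to 1960 to 3889 in CM (5 of 7 called higher), Sertoli markers from 221 to 325 to 552 to 1084 (3 of 7 higher), macrophage markers from 53.8 to 102 to 147 to 338 (4 of 4 higher), and round spermatid markers from 9296 to 16404 down to 2731 to 9100 (2 of 7 lower). Markers of spermatogonia rose in 2 of 7, of peritubular myoid cells in 1 of 5, and of endothelial cells in 1 of 5 with 1 lower, while the 6 spermatocyte markers summed to 504 to 531 CPM in WT and 429 to 515 in CM. By the paper's methods, the whole testis RNA came from germ cell preparations in which collagenase was used against interstitial tissue. How much somatic tissue remained in each library was not measured here. The part of these cell types in the gene changes below was not tested.

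A gene was called when its edgeR adjusted p was below 0.05 and it changed more than 2-fold. In whole testis, 15.3% of 16378 tested genes were called higher in CM than in WT and 5.90% lower. Members stood at the promoters of 117 annotated genes, of which 77 could be tested. Of these, 16 were called higher (20.8%) and 3 lower (3.90%), near the shares among all genes, and the median log2 fold change was 0.05 against 0.00. Genes with a shared peak at the promoter stood at 17.7% and 5.14%. With the replicate block, which pairs libraries of equal number, 19 promoter genes were higher and 5 lower, beside 18.3% and 8.66% of all genes in that fit.

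The 19 called genes stood at 18 members, since 0610007C21Rik and Slc5a6 share one. Those members were 102 to 263 high, 13 held a motif match, 2 lay under a WT BORIS peak, and 11 lay under no Pol2 or H3K4me3 peak. In each of the 19 genes, which were chosen by their call, the CM libraries and WT libraries did not overlap. Of all 77 tested promoter genes, the CM libraries lay above all WT libraries in 25 and below them in 16. The share over all genes was not counted, so these counts are not a result about genes at members. Without WT replicate 2, WT replicate 3 or CM replicate 3, 0 promoter genes were called in either direction. How many of all genes were called in those 3 fits was not counted, so these counts of 0 are not a result about genes at members. All 19 kept their direction in those 3 fits, the median ratio of their log2 fold changes to the reported ones was 0.99, 0.93 and 1.02, and their adjusted p lay between 0.0572 and 0.157.

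Adar, Samd9l, Gbp2 and C1s were among the genes that rose. Adar, an RNA-editing enzyme with an interferon-inducible form, had 8.73, 6.96 and 8.01 CPM in WT and 34.0, 16.8 and 21.7 CPM in CM (log2 fold change 1.61 ± 0.32, edgeR adjusted p = 0.0165). The Adar promoter also had a shared peak. Samd9l, an interferon-inducible antiviral gene whose start lay 32 bp from a member's summit, had 5.82, 9.93 and 3.91 CPM in WT and 32.5, 17.5 and 39.3 CPM in CM (2.18 ± 0.42, 0.0165). Gbp2, an interferon-induced GTPase, rose by 1.31 ± 0.33 on the log2 scale and C1s, a complement protease, by 1.45 ± 0.38. These genes were grouped here by what they encode, and no gene set was tested. Markers of Leydig cells, Sertoli cells and macrophages rose in the same libraries, and their part in these changes was not tested.

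Npr1, Ppap2b, Syt12, Slc23a2 and Exoc1 also rose. Npr1, the receptor of atrial natriuretic peptide, had 53.2, 34.3 and 28.7 CPM in WT and 227, 79.9 and 92.6 CPM in CM (log2 fold change 1.78 ± 0.43, edgeR adjusted p = 0.0231). Ppap2b, a lipid phosphatase gene, had 19.8, 19.7 and 9.31 CPM in WT and 106, 40.8 and 70.3 CPM in CM (2.15 ± 0.42, 0.0164). The member at Ppap2b held no motif match. It lay under a Pol2 peak in CM and not in WT, and under H3K4me3 peaks of both genotypes. Syt12, a synaptotagmin gene whose member lay under a WT BORIS peak, rose by 2.40 ± 0.43, Slc23a2, a vitamin C transporter gene, by 1.89 ± 0.47, and Exoc1, an exocyst subunit gene, by 1.19 ± 0.26. For Npr1 and Ppap2b the first CM library was the highest.

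The 3 genes that fell were Mettl3, Scaper and Fam71f2. Mettl3, the catalytic subunit of the m6A RNA methyltransferase, had 16.4, 25.1 and 15.3 CPM in WT and 9.60, 6.70 and 7.06 CPM in CM (log2 fold change -1.27 ± 0.30, edgeR adjusted p = 0.0214). Scaper, a cyclin A-associated protein of the endoplasmic reticulum, had 177, 173 and 161 CPM in WT and 53.2, 103 and 86.4 CPM in CM (-1.07 ± 0.28, 0.0257). Fam71f2 changed by -1.51 ± 0.39 (0.0258), and its member lay under a Pol2 peak in WT and not in CM. The members at Mettl3, which fell, and at 0610007C21Rik, which rose, lay under Pol2 peaks of both genotypes.

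**Figure D5:**
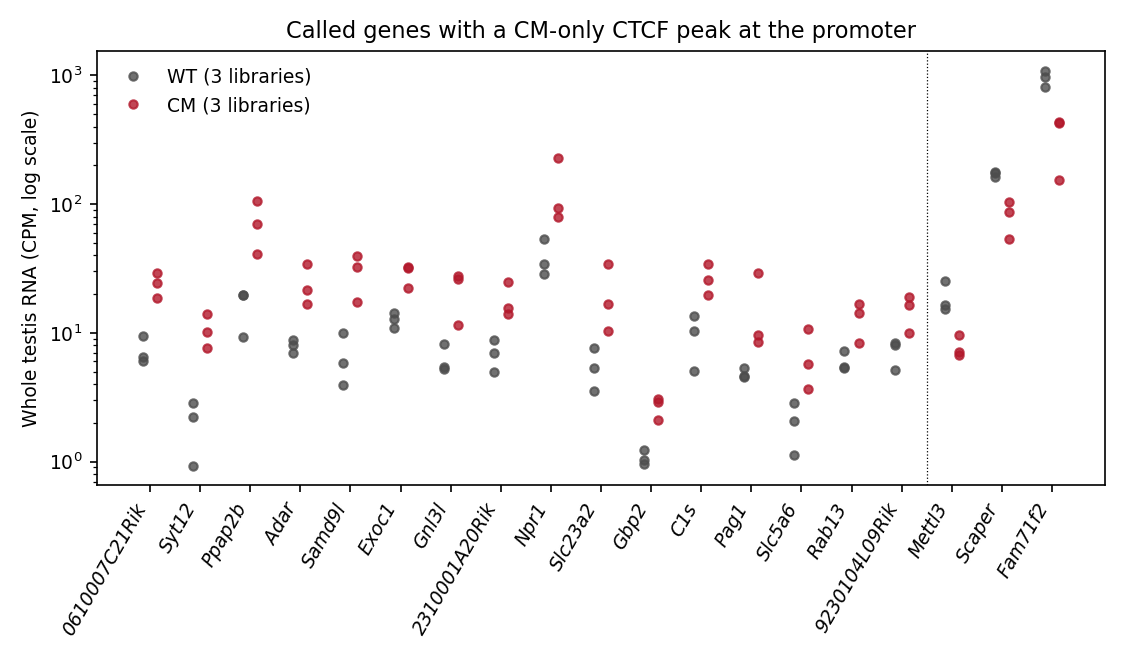
Whole testis expression in CPM (log axis) of the 19 called genes with a CM-only peak at the promoter, 1 point per library, for the 3 WT (grey) and the 3 CM (red) libraries. In these genes, chosen by their call, the CM libraries lay above all WT libraries in the 16 left of the dotted line. They lay below them in Mettl3, Scaper and Fam71f2.

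In purified cells edgeR called hardly any gene between the libraries labelled CM and WT, while DESeq2 called more. The check of Ctcf above limits any direction drawn from these libraries. In round spermatids 0.00654% of 15298 tested genes were higher and 0% lower, and none of the 69 promoter genes was called by edgeR (0 higher and 0 lower). Of these, 13 had an unadjusted p under 0.05, 9 higher and 4 lower, beside 11.9% and 8.60% of all genes, and DESeq2 called 5 higher and 0 lower, beside 6.38% and 2.69%. In spermatocytes 0.339% of 14747 genes were higher and 0.0949% lower, and 0 of 68 promoter genes were called by edgeR, with 21 at an unadjusted p under 0.05 (12 higher and 9 lower, beside 14.8% and 14.9% of all genes) and 2 higher and 1 lower by DESeq2 (beside 6.26% and 1.71%). Of the 19 genes called in whole testis, 14 could be tested in round spermatids and 11 of those had the same sign there, and 13 could be tested in spermatocytes, 6 with the same sign. Markers moved in round spermatids too: those of round spermatids summed to 1249 to 1387 CPM in WT and 534 to 776 in the libraries labelled CM, those of spermatogonia to 22.1 to 28.9 and 35.8 to 387, and those of spermatocytes to 537 to 778 and 762 to 1347. The second library labelled CM stood apart in several named genes, with 5.93 CPM of Adar against 1.01 and 1.80 in the other two, and 17.4 CPM of Exoc1 against 3.26 and 3.86. The part of these cells in the signs was not tested.

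In the single mutants no promoter gene was called. In CTCF HET whole testis 0.00621% of 16097 genes were higher and 0% lower than in WT, and in BORIS KO 0.00612% of 16344 were higher and 0.0489% lower. Of the 76 promoter genes tested in each, 0 were called by edgeR in either direction, with 2 at an unadjusted p under 0.05 in CTCF HET (0 higher and 2 lower, beside 1.47% and 1.16% of all genes) and 18 in BORIS KO (11 higher and 7 lower, beside 10.6% and 6.06%). DESeq2 was not run on these comparisons. These comparisons share their WT libraries with the CM comparison.

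Genes with a member in the body, 730 of which were tested in whole testis, were called higher in 109 cases (14.9%) and lower in 35 (4.79%), near the 15.3% and 5.90% of all genes, with a median log2 fold change of -0.01. With the replicate block 122 were higher and 60 lower, beside the 18.3% and 8.66% of all genes in that fit. Cask, a scaffold kinase gene, had 2.15, 2.34 and 1.58 CPM in WT and 13.6, 7.34 and 11.2 CPM in CM (2.39 ± 0.34, edgeR adjusted p = 0.0151). Grb2, an adaptor of receptor tyrosine kinases, rose by 1.98 ± 0.28 and Hivep2, a zinc finger gene, by 1.76 ± 0.28. Dzip1, a cilium gene, had 510.0, 384 and 455 CPM in WT and 116, 196 and 156 CPM in CM (-1.53 ± 0.27, 0.0154), and Hapln1, which encodes a link protein of the extracellular matrix, changed by -2.95 ± 0.49. Besides their member, Cask and Hivep2 each had 1 shared peak and Hapln1 had 2. WT-only peaks at these genes were not counted, and the paper shows Cask among loci that lost CTCF binding in CM. The gene with most members was Arfip1 with 5, and 72 genes held 2 or more.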

How the data were processed

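For ChIP-seq, the authors used Bowtie2 alignments to the mm9 genome, MACS for peak calling and PeakSplitter for refinement. The deposited CTCF and BORIS lists give peak height as a signal, and the deposited Pol2 and H3K4me3 lists give a MACS score. How the 2 CTCF replicates of a genotype were combined and scaled is not given in the sources used here. RNA-seq values were deposited as raw counts per gene, from TopHat2 alignments for whole testis and STAR for purified cells. Aligner versions are not given in the sources used here.

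Peaks were intersected in Python 3.11.15, with an overlap of at least 1 bp counted as shared, and annotated against NCBIM37, the assembly of mm9. Motif windows of 100 bp on either side of each summit were read with pysam 0.24.0, and a matrix of 16 columns was learned from the 2000 highest shared peaks. Shares have 95% Wilson intervals and differences 95% Newcombe intervals, which cover counting error only.

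Counts were tested with edgeR 4.0.16 in R 4.3.3 (TMM scaling, filterByExpr, quasi-likelihood test on the 2 genotypes compared, Benjamini-Hochberg adjustment over all tested genes). DESeq2 1.42.0 was an alternative. The scripts were tested on simulated data. Nothing ties the numbered RNA libraries to shared animals, but same-numbered whole testis libraries deviated together (correlations 0.612, 0.215 and 0.351), as did those of round spermatids (0.296, 0.107 and 0.125), so the fit with a replicate block is given where it moved a count. Spermatocyte libraries did not (-0.408 and -0.178). Whether libraries are separate preparations is known only from the study's methods.

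Regions named are the 10 highest members, the 5 highest under a WT BORIS peak, under both CM marks and at promoters, and those at the edge of the rule. Genes named are those called at promoters, up to 12 per direction by adjusted p, and the 5 per direction with a member in the body, of which a selection is printed, besides Ctcf, Ctcfl and genes nearest to named regions. The members, gene lists and tests were chosen with earlier results of these data known.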

Additional observations from a re-analysis of the deposited data

Results flagged for a closer look

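For some genes at members, the CM libraries of 1 purified cell type all lay on the opposite side of the WT libraries from the CM libraries of whole testis. These differences between preparations were not tested, and Ctcf did not follow the genotype in the purified libraries labelled CM. Separated libraries were not confined to these genes. Of 69 promoter genes tested in round spermatids, the libraries labelled CM lay above all WT libraries in 8 and below them in 9. Of 68 tested in spermatocytes, where WT had only 2 libraries and separation arises more easily, they lay above in 14 and below in 18. The share over all genes was not counted, so these counts are not a result about genes at members. Samd9l was higher in CM whole testis (log2 fold change 2.18) and lower in CM round spermatids (-2.56), with 2.99, 5.29 and 4.44 CPM in WT and 0.933, 1.21 and 0 CPM in CM. Npr1 was higher in whole testis (1.78) and lower in spermatocytes (-0.93), with 7.22 and 7.21 CPM in WT and 5.56, 3.14 and 2.62 CPM in CM. Mettl3 was lower in whole testis (-1.27) and stood at 0.40 in spermatocytes, with 9.28 and 9.02 CPM in WT and 12.2, 11 and 13 CPM in CM. In round spermatids Npr1 (0.29) and Mettl3 (-0.34) had the sign of whole testis. Scaper, at -1.07 in whole testis, stood at 0.25 in round spermatids and 0.39 in spermatocytes. Nuf2, at -0.58 in whole testis and not called there, stood at 0.14 in spermatocytes. For these opposite values in purified cells the edgeR adjusted p was 0.273 for Samd9l, 0.140 for Npr1 and 0.179 for Mettl3. It was 0.388 and 0.0809 for Scaper in round spermatids and spermatocytes, and 0.311 for Nuf2.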

How the results depend on the processing

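Peak measures moved with the peak set and window. With the upper 50% of heights in each list, 867 CM peaks had no WT peak, but only 33 of them were members and 834 overlapped a WT peak of the lower 50%. A height of 150 or more left 924 members. Promoters of 3 kb held 16.3% of members. A motif match was found in 93.4% with a window of 50 bp on either side of the summit, 33.9% at the 1% threshold, 81.8% in the upper 50% of CM heights (27 of 33) and 85.7% with the matrix learned from members, which was added after seeing the data. Within 1 kb, WT Pol2, CM Pol2, WT H3K4me3 and CM H3K4me3 peaks lay near 6.5%, 7.54%, 5.46% and 5.05% of members. In the upper 50% of heights, which held only 33 members, the shares were 3.03%, 3.03%, 0% and 6.06%, with BORIS at 0%. These stand for 1, 1, 0, 2 and 0 members. The cause was not tested.

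Whole testis calls depended on the libraries. Leaving out 1 library gave 0 to 19 higher and 0 to 6 lower promoter genes, and 0 to 135 higher and 0 to 46 lower body genes. At adjusted p < 0.001 all 4 counts were 0. Lower calls rose with DESeq2 (5 at promoters, 54 in bodies), with the replicate block (5 and 60) and with no fold change threshold (6 and 69). The share of all genes was taken only for the reported fits, for the replicate block in whole testis and for DESeq2 in purified cells. Counts under the other fits and thresholds are therefore not results about the members. Promoters of 3 kb gave 36 higher and 13 lower genes of 234 tested, beside 15.3% and 5.90% of all genes. Bodies of members in the upper 50% of heights gave 0 and 0 of 9 tested. In round spermatids DESeq2 called 5 higher promoter genes, and leaving out 1 library gave 0 to 3 higher and 0 to 1 lower. In spermatocytes DESeq2 called 2 higher and 1 lower, and leaving out 1 library gave 0 to 4 of each. The replicate block changed no other call count by more than 1.5 times. Of the values of the 29 named genes with a call, 100 of 174 lost it when 1 library was left out, 2 of 116 did under other settings, and 0 reversed. Of 30 values of the named genes without a call, 2 gained one when 1 library was left out.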
